A study of Rattus norvegicus with 18 samples.

Results

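Livers of rats that had 50% of the liver removed (partial hepatectomy, PHx), were bled of 3 ml and were then resuscitated with 10% HAES are described here against livers of naive rats, across all genes of the array. HAES is hydroxyethyl starch, a colloid that expands plasma volume and carries no cells. The 6 arrays were taken by their titles, 3 titled HAES and 3 titled Naive, of 18 arrays in the series, and the other 12 are 3 each of PHx rats given red blood cells after bleeding, fresh (F-RBC) or stored for 7 days (S-RBC), of PHx rats bled without resuscitation (bleeding) and of rats with PHx alone (PHx). All rats were adult male Sprague-Dawley rats, 1 array stands for 1 rat, and the livers of every group but the naive one were collected on day 1 after PHx. The protocol given for the study has the rats anaesthetised with ketamine and xylazine, injected into the abdomen. The femoral artery is cannulated, 3 ml of blood is drawn at 1 ml per minute, and the median and left lateral lobes are removed. The naive rats are labelled naive only. Whether they were anaesthetised or cannulated, which lobe was sampled, and the volume and time of HAES were not given in the sources used here. HAES and naive livers therefore differed in surgery, resection, blood loss and starch at once, and possibly in the anaesthetic drugs. In this comparison these cannot be told apart. HAES livers are also set against PHx and bleeding livers, which share the resection, or the resection and the blood loss.

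After resection the remaining liver has to keep up the work of the whole organ while its hepatocytes leave rest and divide, and in the rat the wave of DNA synthesis is known to peak about a day after a large resection. Tissue injury also starts the acute phase response, in which IL-6 and IL-1 lead hepatocytes to secrete more of some plasma proteins and less of others. Hepatocytes are also the main site of fatty acid oxidation, driven by the nuclear receptor PPAR alpha, of fat synthesis, driven by insulin and sugar, and of drug metabolism by cytochrome P450 enzymes, which nuclear receptors such as CAR and PXR induce.

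The values are levels on the log2(intensity + 16) scale, on which an intensity of 0 is 4, and a log2 fold change is the HAES mean minus the naive mean on that scale, which understates changes of dim genes. Groups were compared with limma over the 18 arrays, and a result is past the threshold at an adjusted p under 0.05 over all 36685 probe sets. The median intensity was 16.8 to 23.0 on the HAES arrays and 16.1 to 18.6 on the naive arrays. Levels correlated with r between 0.960 and 0.967 within the HAES group, between 0.965 and 0.975 within the naive group and between 0.929 and 0.961 across the groups. S-RBC replicate 1 stood apart, with r between 0.911 and 0.938 with the other arrays. Hepatocyte markers were bright in both groups: Alb, which encodes albumin, was at 12.87 in HAES livers, a difference of −0.13 from naive livers.

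Compared with naive livers, HAES livers had far more transcript of acute phase proteins such as Lcn2 and A2m and of the drug-metabolising enzymes Cyp2b1 and Cyp2b2, and far less of Scd and Lpin1, which make and assemble fat. Of 36685 probe sets, 962 (2.62%) were past the threshold, 653 higher (1.78%) and 309 lower (0.842%) in HAES livers. The split depended on scaling, since median centring of the arrays gave 534 higher and 483 lower. Among 18166 genes with a single symbol, each represented by its brightest probe set, 237 (1.3%) were past the threshold, 180 higher and 57 lower. The median log2 fold change was 0.05 over all probe sets, and 59.4% were positive. The 3 HAES arrays did not overlap the 3 naive arrays in 6690 probe sets (18.2%), and in 959 of the 962 past the threshold. A change of over 2-fold on the scale used was seen in 695 probe sets, of which 443 were past the threshold. At an unadjusted p under 0.05 limma gave 5448 probe sets (14.9%), and the methods' t-test gave 0 of 36685 after adjustment, so it is not given for single lists. Of the 962, 135 belong to probe sets whose 18 values repeat those of another probe set exactly, and the 962 hold 863 distinct sets of values. Without HAES replicate 3 the count was 354, without naive replicate 1 it was 396 and without naive replicate 2 it was 625.

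**Figure D1:**
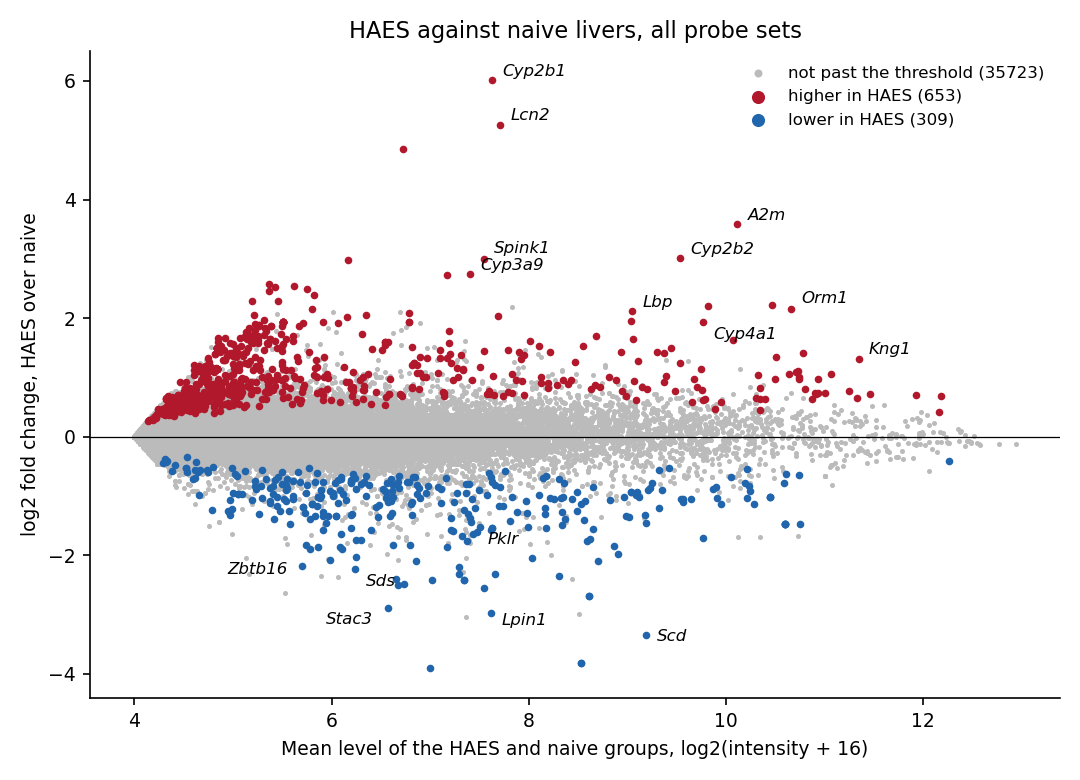
Each point is 1 of 36685 probe sets, with the mean level of the HAES and naive groups on the x axis, as log2(intensity + 16), and the log2 fold change of HAES over naive livers on the y axis. Red points (653) are higher and blue points (309) lower in HAES livers past the threshold, and many red points are dim. Cyp2b1 and Lcn2 lie far above the other labelled genes, A2m follows at 3.59, and Scd is the lowest labelled gene at −3.35.

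Among acute phase plasma proteins 10 of 30 measured genes were past the threshold, all higher in HAES livers, with a median log2 fold change of 0.36. Lcn2 (probe set 17771287), which encodes lipocalin 2, a protein that withholds iron from bacteria, was at 10.23, 9.97 and 10.82 in HAES livers and at 4.76, 4.83 and 5.63 in naive livers. The lowest HAES level was over 4 units above the highest naive level, and naive replicates 1 and 2 lay within 1 unit of the level of an intensity of 0. The log2 fold change was 5.27 (SE 0.36, adjusted p = 1.04e-06), or 38.5-fold on the scale used, and it depends on the offset, at 6.17 with an offset of 1 and 4.03 with an offset of 64. A2m (probe set 17786724), alpha-2-macroglobulin, the main acute phase proteinase inhibitor of the rat, was at 11.93, 11.76 and 12.03 in HAES livers and at 8.74, 7.36 and 8.86 in naive livers. HAES livers were alike in A2m, with an SD of 0.14, while naive livers spread more, with an SD of 0.83, and the groups were 3.59 apart (SE 0.29, adjusted p = 6.78e-06).

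Orm1, alpha-1-acid glycoprotein, was at 11.70, 11.61 and 11.88 in HAES livers and at 9.30, 9.68 and 9.77 in naive livers, 2.15 apart on the log2 scale (SE 0.14, adjusted p = 1.04e-06). Lbp, which presents bacterial lipopolysaccharide to its receptor, was at 9.97, 9.87 and 10.47 in HAES livers and at 7.75, 7.68 and 8.52 in naive livers, 2.12 apart (SE 0.27, adjusted p = 0.000537). In both genes every HAES liver was above every naive liver by more than 1 unit. Spink1, a trypsin inhibitor, was at 9.37, 7.86 and 9.88 in HAES livers and at 6.47, 5.62 and 6.05 in naive livers, 2.99 apart (SE 0.72, adjusted p = 0.0329), with HAES replicate 2 well below the other two. Kng1 (kininogen, 1.31), C4bpa (a complement inhibitor, 0.73), Hpx (hemopexin, which binds heme, 0.68), Itih4 (0.65) and Hp (haptoglobin, which binds hemoglobin, 0.41) also rose. Hamp, the iron hormone hepcidin, had the lowest value of the list, at 9.89 ± 0.36 in HAES livers and 11.56 ± 0.75 in naive livers (SD, n = 3 each; log2 fold change −1.67, adjusted p = 0.156), and did not pass the test. Lcn2, A2m, Orm1, Lbp, Kng1, Hpx and Itih4 stayed past the threshold with each of the 6 arrays left out in turn, whereas Spink1 was lost in 5 of the 6 fits (adjusted p up to 0.171, without HAES replicate 3), Hp in 4 (up to 0.166, without HAES replicate 3) and C4bpa in 2 (0.0552 without HAES replicate 3 and 0.0513 without naive replicate 1).

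The promoters of Lcn2 and Orm1, which have the smallest p of the acute phase genes, are shown because C/EBP factors are known regulators of acute phase genes, and matches to the C/EBP pattern TTNNGNAA, searched on both strands, are in capitals. Sequences are from RefSeq on build GRCr8, 250 bases before to 50 after the start of the gene, Lcn2 at chr3:36081731-36082030 (minus strand) and Orm1 at chr5:81788259-81788558 (plus strand).
Lcn2: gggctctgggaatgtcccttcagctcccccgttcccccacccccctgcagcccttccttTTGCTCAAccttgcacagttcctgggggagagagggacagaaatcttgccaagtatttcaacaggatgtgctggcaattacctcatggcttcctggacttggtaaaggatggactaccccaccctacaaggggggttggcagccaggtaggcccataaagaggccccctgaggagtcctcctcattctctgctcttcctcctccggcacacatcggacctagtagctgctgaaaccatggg
Orm1: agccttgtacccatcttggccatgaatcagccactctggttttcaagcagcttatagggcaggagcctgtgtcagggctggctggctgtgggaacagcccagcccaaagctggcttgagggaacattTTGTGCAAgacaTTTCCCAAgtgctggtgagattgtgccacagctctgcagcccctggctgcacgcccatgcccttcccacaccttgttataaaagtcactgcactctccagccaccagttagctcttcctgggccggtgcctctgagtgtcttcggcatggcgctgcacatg
Lcn2 holds 1 match and Orm1 holds 2. Of the 10 acute phase genes past the threshold 7 have a promoter in the table, and all 7 hold a match, as do 40.8% of 27457 promoters of the same length. The STAT pattern TTCNNNGAA, the kind of element IL-6 signalling is known to act on, was also searched on both strands and was found in 1 of the 7, Itih4, and in 8.68% of all promoters. A match of letters is a description and not a site of binding.

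Of 36 complement and coagulation genes, 4 were past the threshold and all higher in HAES livers, with a list median of 0.27. These were C5 (1.04, SE 0.17, adjusted p = 0.00251), the source of the anaphylatoxin C5a, and with smaller margins F5 (0.81), a clotting cofactor, C9 (0.73), a pore-forming subunit, and C1s (0.65), a protease of the classical pathway. C5 was at 10.67, 10.75 and 11.12 in HAES livers and at 9.66, 9.74 and 10.00 in naive livers, without overlap. C5 stayed past the threshold with each array left out, F5 was lost in 5 of 6 fits (adjusted p up to 0.221, without naive replicate 1), C1s in 4 (up to 0.142, without HAES replicate 3) and C9 in 3 (up to 0.0832, without HAES replicate 3). Wfdc21, a small secreted protein, rose by 2.22 (SE 0.20, adjusted p = 2.18e-05), and Prg4, the lubricin gene, by 1.95 (SE 0.26, adjusted p = 0.000775), and both kept their calls with each array left out. Fgl1, a fibrinogen-like protein secreted by hepatocytes and named after its values were seen, rose by 1.11 (adjusted p = 0.0012).

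Proteins that the liver is known to secrete less of in the acute phase did not fall past the threshold in HAES livers. Of 19 measured, 0 were lower and 1 was higher by limma, with a median of −0.10, and 5 had an unadjusted p under 0.05 in either direction. The gene that rose was Serpina7, thyroxine-binding globulin, at 7.74, 7.67 and 8.14 in HAES livers and 6.76, 6.73 and 6.58 in naive livers (1.16, SE 0.25, adjusted p = 0.0161), a call lost in 3 of 6 fits with 1 array left out (up to 0.0977, without HAES replicate 3). Ttr, a carrier of thyroxine and of retinol-binding protein, was at 12.01 ± 0.04 in HAES livers and 12.27 ± 0.10 in naive livers (SD, n = 3 each; adjusted p = 0.214 from limma), and its groups did not overlap.

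None of 25 genes of IL-6, IL-1 and TNF signalling, the cytokines known to act upstream of this response, was past the threshold by limma. Of these 5 had an unadjusted p under 0.05 and 5 did not overlap between the groups, where 14.9% and 18.2% of all probe sets did so, and the median was −0.04. The smallest p belonged to Il6r, the IL-6 receptor, at 7.13 ± 0.12 in HAES livers and 7.90 ± 0.23 in naive livers (SD, n = 3 each; −0.76, adjusted p = 0.0632), which passed the threshold under median centring and quantile normalization (adjusted p = 0.0377 and 0.0481). Median centring also removed calls, as for Hp (adjusted p = 0.0765 from limma), and such genes are listed further below. Of 31 chemokines and receptors 1 was past the threshold, Cxcl10, an interferon-induced chemokine, which fell by 0.66 (adjusted p = 0.0404) and was lost in 5 of 6 fits with 1 array left out (up to 0.208, without HAES replicate 3).

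**Figure D2:**
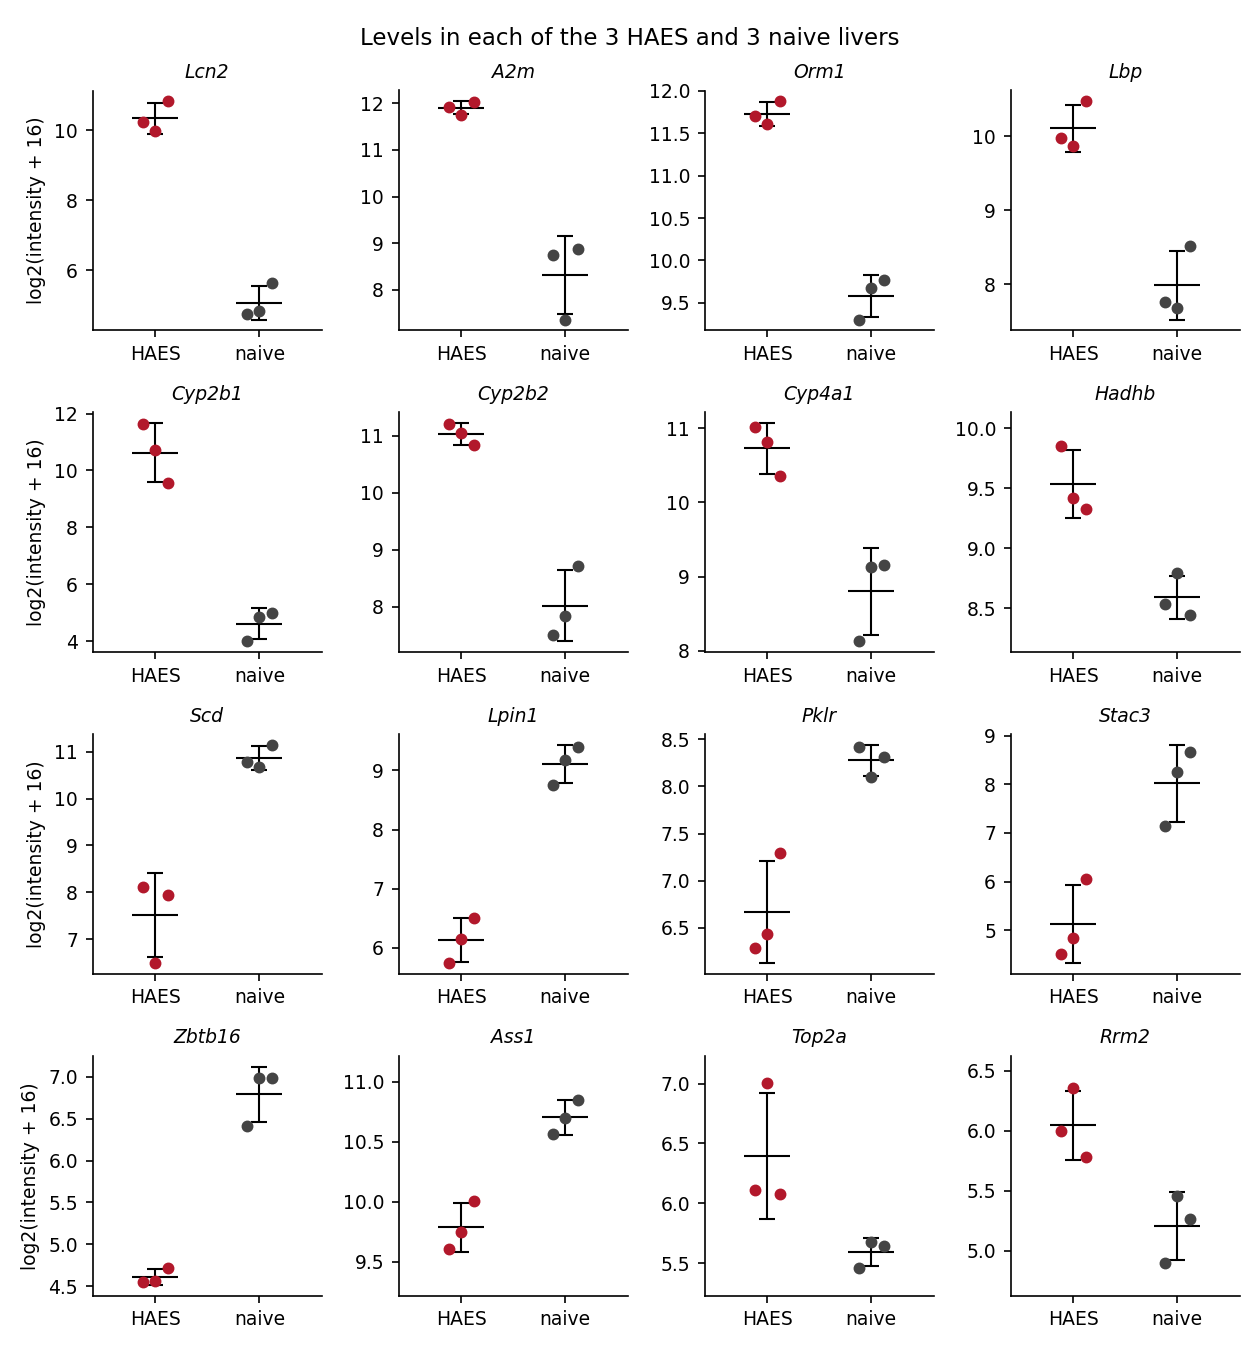
Levels of 16 genes as log2(intensity + 16) in each of 3 HAES livers (red, left) and 3 naive livers (grey, right), with the mean as a line and the SD as bars, each panel on its own axis. In every panel the 3 HAES livers lie on 1 side of the 3 naive livers, also in Top2a and Rrm2, which were not past the threshold.

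The largest fold change of any gene was in Cyp2b1, the main phenobarbital-inducible P450 of rat liver. Cyp2b1 (probe set 17614487) was at 11.62, 10.71 and 9.56 in HAES livers and at 4.0, 4.84 and 5.0 in naive livers. Naive replicate 1 was at an intensity near 0, and HAES livers differed among themselves by over 2 units and still lay over 4 units above the naive ones. The log2 fold change of 6.01 (SE 0.62, adjusted p = 7.41e-05) depends on the offset, since it was 7.99 with an offset of 1 and 4.48 with an offset of 64. Its neighbour Cyp2b2, a close relative, was at 11.21, 11.06 and 10.84 in HAES livers and at 7.51, 7.84 and 8.72 in naive livers, without overlap (3.01, SE 0.37, adjusted p = 0.00037). Cyp3a9, a steroid- and drug-metabolising P450, was at 8.98, 9.01 and 8.33 in HAES livers and at 4.82, 6.42 and 6.84 in naive livers (2.74, SE 0.53, adjusted p = 0.00945), and without naive replicate 1, the lowest array, it was at 2.14 (adjusted p = 0.0608).

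The promoters of Cyp2b1 and Cyp2b2 are printed side by side because the genes are close relatives. Whether probes of one gene bind transcripts of the other was not tested, so their values are uncertain as separate measurements. Promoter bases do not bear on that question. Over 283 aligned positions 275 are identical (97.2%), and the 8 that differ are in capitals (RefSeq, GRCr8, Cyp2b1 at chr1:90645869-90646168 and Cyp2b2 at chr1:90722031-90722330, both on the plus strand).
Cyp2b1: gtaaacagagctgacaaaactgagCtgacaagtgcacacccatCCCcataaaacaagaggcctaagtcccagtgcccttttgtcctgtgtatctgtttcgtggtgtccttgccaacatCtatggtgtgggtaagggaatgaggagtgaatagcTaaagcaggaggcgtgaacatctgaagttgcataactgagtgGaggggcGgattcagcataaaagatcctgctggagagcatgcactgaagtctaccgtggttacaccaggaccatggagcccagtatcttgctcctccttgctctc
Cyp2b2: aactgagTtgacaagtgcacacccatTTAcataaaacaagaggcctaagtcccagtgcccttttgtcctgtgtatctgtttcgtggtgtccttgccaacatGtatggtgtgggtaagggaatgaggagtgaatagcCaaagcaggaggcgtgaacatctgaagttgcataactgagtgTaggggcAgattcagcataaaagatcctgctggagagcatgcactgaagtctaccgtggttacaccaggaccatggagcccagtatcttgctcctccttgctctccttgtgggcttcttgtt

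Of 32 xenobiotic P450s, 6 were past the threshold, all higher in HAES livers, and the list median was 0.06, close to that of all probe sets. Besides the genes above these were Cyp2a1 (1.24, SE 0.24, adjusted p = 0.0101), which hydroxylates testosterone, Cyp2e1 (0.72, adjusted p = 0.0461), which oxidises ethanol, and Cyp2c6v1 (0.71, SE 0.12, adjusted p = 0.00449). Cyp2a1 showed little spread, at 10.13, 10.21 and 10.12 in HAES livers and 8.90, 8.84 and 8.99 in naive livers. Cyp2e1 was lost in 4 of 6 fits with 1 array left out (adjusted p up to 0.205, without naive replicate 1), while Cyp2a1, Cyp2b1, Cyp2b2 and Cyp2c6v1 were kept in all 6. The esterase Ces2c was at 6.57, 6.87 and 6.55 in HAES livers and at 4.41, 4.85 and 4.99 in naive livers (1.91, SE 0.18, adjusted p = 3.3e-05). Ugt2b10, a glucuronosyltransferase, rose by 1.42 (SE 0.21, adjusted p = 0.00126) and was the 1 gene past the threshold of 27 conjugation enzymes, whose median was −0.02. The alcohol dehydrogenases Adh7 and Adh1c, named after their values were seen, rose by 1.32 and 1.05 (adjusted p = 0.00914 and 0.00391), and Adh7 was lost without naive replicate 1 (adjusted p = 0.0527). Of 11 carboxylesterases, a list added after the calls were seen with a median of −0.06, Ces2c and Ces2e (1.43) rose and Ces2h fell by 1.65, the last of these being lost in 5 of 6 fits (adjusted p up to 0.228, without HAES replicate 3), and Ces2e in 1 (0.0599, without HAES replicate 3). Hsd17b6, a dehydrogenase of androgens and retinol, was at 9.87 ± 0.37 in HAES livers and 8.23 ± 0.18 in naive livers (SD, n = 3 each; 1.64, adjusted p = 0.0203), lost in 4 of 6 fits (up to 0.0866, without naive replicate 1). Akr1d1, a reductase of bile acid synthesis, rose by 0.77 (SE 0.13, adjusted p = 0.00297), the only 1 of 30 bile acid genes past the threshold.

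Of 28 measured genes of fatty acid oxidation and PPAR alpha targets, 7 were past the threshold, all higher in HAES livers, 21 were positive, 7 were negative and the median was 0.40. Cyp4a1, a fatty acid hydroxylase and a typical PPAR alpha target, was at 11.02, 10.82 and 10.35 in HAES livers and at 8.13, 9.12 and 9.16 in naive livers (1.93, SE 0.28, adjusted p = 0.00123). Hadhb, the beta subunit of the mitochondrial trifunctional protein, was at 9.85, 9.42 and 9.33 in HAES livers and at 8.54, 8.79 and 8.45 in naive livers (0.94, SE 0.16, adjusted p = 0.00302). In both genes the groups did not overlap, and both calls were kept with each array left out. Eci1 (1.52), which shifts double bonds during oxidation, Vnn1 (1.46), a pantetheinase, Decr1 (0.96), which reduces unsaturated intermediates, Slc25a20 (0.90), the mitochondrial carrier of acylcarnitines, and Hadha (0.78), the partner subunit of Hadhb, rose with adjusted p-values of 0.0244 to 0.0441. These 5 were each lost without naive replicate 1 (adjusted p = 0.117 to 0.198), which had the lowest level of the 6 arrays in each of them. Over the 6 fits with 1 array left out Decr1 was lost in all 6, Vnn1 and Hadha in 5 and Eci1 and Slc25a20 in 4. Acot2, a mitochondrial thioesterase, had a larger fold change of 1.10 than some of these and was not past the threshold (adjusted p = 0.159).

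In a list of 48 peroxisomal proteins, added after the calls were seen and so no independent support, 6 were past the threshold, all higher in HAES livers, with a median of 0.18. Eci3 was at 11.30 ± 0.06 in HAES livers and 10.56 ± 0.17 in naive livers (SD, n = 3 each; 0.74, SE 0.14, adjusted p = 0.00674) and was kept with each array left out. Hsdl2 (1.26), Abcd2 (1.20, a transporter of very long chain fatty acids), Slc25a17 (0.76, a carrier of cofactors), Nudt7 (0.68, which cuts coenzyme A) and Slc27a2 (0.63, which activates fatty acids) were all lost without naive replicate 1 (adjusted p = 0.107 to 0.221). Hsdl2 was lost in all 6 fits, Nudt7 in 5, Slc25a17 and Slc27a2 in 4 and Abcd2 in 3. Lipa, the lysosomal acid lipase, rose by 0.98 (adjusted p = 0.0204) and was lost in 3 of 6 fits (up to 0.112, without naive replicate 1).

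Scd (probe set 17642329), stearoyl-CoA desaturase, was at 8.11, 6.49 and 7.94 in HAES livers and at 10.79, 10.67 and 11.15 in naive livers. The log2 fold change was −3.35 (SE 0.62, adjusted p = 0.00674), the lowest of any gene past the threshold with a single symbol, and the lowest naive level lay over 2 units above the highest HAES level. Lpin1, a phosphatidate phosphatase needed for triglyceride synthesis that also acts as a coactivator of PPAR alpha, was at 5.74, 6.16 and 6.50 in HAES livers and at 8.75, 9.18 and 9.39 in naive livers (−2.98, SE 0.52, adjusted p = 0.00451). These were the only 2 of 31 genes of fatty acid synthesis and lipid storage past the threshold, and the list median was −0.03. Acaca, acetyl-CoA carboxylase, and Acly, ATP citrate lyase, were at 6.53 ± 0.46 and 6.91 ± 0.49 in HAES livers and at 7.48 ± 0.34 and 7.73 ± 0.40 in naive livers (SD, n = 3 each), differences of −0.95 and −0.82 that were not past the threshold (adjusted p = 0.122 and 0.132 from limma).

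Pklr, liver pyruvate kinase, was at 6.28, 6.44 and 7.29 in HAES livers and at 8.42, 8.10 and 8.31 in naive livers (−1.61, SE 0.23, adjusted p = 0.00118). Pfkfb1, which makes and breaks down a fructose bisphosphate that activates glycolysis but is not a step of it, was at 7.27, 7.47 and 7.27 in HAES livers and at 8.64, 8.75 and 8.50 in naive livers (−1.30, SE 0.18, adjusted p = 0.00118). They were the 2 genes past the threshold of 23 genes of gluconeogenesis, glycolysis and glycogen, whose median was −0.14. Tkt, transketolase of the pentose phosphate pathway, fell by 0.95 (SE 0.15, adjusted p = 0.00207), and Tkfc, which phosphorylates dihydroxyacetone and glyceraldehyde and was named after its values were seen, fell by 0.99 (adjusted p = 0.0116). Scd, Lpin1, Pklr, Pfkfb1 and Tkt were kept with each array left out, and Tkfc was lost in 3 of 6 fits (up to 0.0604, without naive replicate 1). Rgs16, a regulator of G protein signalling, fell by 1.86 (adjusted p = 0.0428), but its naive level of 7.92 in replicate 1 stood far above 6.23 and 6.23 in the other naive livers, and without that array the difference was −1.29 (adjusted p = 0.212). Nr1h3, the oxysterol receptor LXR alpha, was higher in HAES livers by 0.77 (adjusted p = 0.0342), lost in 4 of 6 fits (up to 0.169, without naive replicate 1). In the cholesterol list Nr1h3 was the 1 gene of 24 past the threshold, and Insig1, which retains the regulator of sterol synthesis in the endoplasmic reticulum, was at 7.76, 6.73 and 8.63 in HAES livers and at 8.60, 9.11 and 9.45 in naive livers, with overlap (−1.34, adjusted p = 0.157).

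Glucocorticoid target genes had the lowest median of all lists, −0.43 over 23 genes, with 3 lower and 1 higher past the threshold. The higher one was Lcn2, which is also in the acute phase list. Zbtb16, a transcription factor strongly induced by glucocorticoids, was at 4.55, 4.56 and 4.72 in HAES livers and at 6.41, 6.98 and 6.98 in naive livers. All 3 HAES levels were near that of an intensity of 0, so the log2 fold change of −2.18 (SE 0.34, adjusted p = 0.00178) depends on the offset, at −3.35 with an offset of 1 and −1.14 with an offset of 64. Fkbp5, a cochaperone of the glucocorticoid receptor, fell by 0.80 (adjusted p = 0.0351), and Sds, serine dehydratase, fell by 2.24 (adjusted p = 0.0236). Zbtb16 was kept with each array left out, Fkbp5 was lost in 4 of 6 fits (up to 0.144, without naive replicate 2) and Sds in 5 (up to 0.0864, without naive replicate 2). Klf9, another hormone-induced factor, and Igfbp1, a binding protein of insulin-like growth factors, were at 7.23 ± 0.23 and 7.10 ± 0.47 in HAES livers and 8.27 ± 0.68 and 8.70 ± 0.54 in naive livers (SD, n = 3 each), and neither passed the test (adjusted p = 0.0983 and 0.19 from limma). Nfil3, a clock output factor, fell by 0.89 (SE 0.18, adjusted p = 0.0145), the 1 gene past the threshold of 17 clock genes, and was lost without naive replicate 3 (adjusted p = 0.0662) and without HAES replicate 1 (0.0505). The time of day at which livers were taken is not given in the sources used here.

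Of 45 genes of amino acid breakdown and the urea cycle, 30 were negative, the median was −0.16 and 2 were past the threshold, Sds and Ass1. Ass1, argininosuccinate synthase of the urea cycle, was at 9.60, 9.74 and 10.00 in HAES livers and at 10.56, 10.69 and 10.85 in naive livers, without overlap (−0.92, SE 0.16, adjusted p = 0.00412). Got1, a transaminase, at 8.05 ± 0.50 in HAES livers and 9.41 ± 0.09 in naive livers (SD, n = 3 each; −1.36, adjusted p = 0.0604), passed the threshold under median centring and quantile normalization (adjusted p = 0.0364 and 0.0494). Gnmt and Mat1a, enzymes of methionine metabolism, were at −0.73 and −0.47 (adjusted p = 0.0769 and 0.104), and Mat1a passed it under the same alternatives (adjusted p = 0.0422 and 0.0437).

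Several of the largest falls lay outside these pathways. Stac3, an adaptor protein known from muscle excitation, was at 4.52, 4.83 and 6.04 in HAES livers and at 7.13, 8.26 and 8.66 in naive livers (−2.89, SE 0.38, adjusted p = 0.000605). Sult1c2al1, a sulfotransferase relative, was at 5.81 ± 0.76 in HAES livers and 7.90 ± 0.51 in naive livers (SD, n = 3 each; −2.09, adjusted p = 0.00412), Cfap95, a protein of cilia, was at −1.55 (adjusted p = 0.00673) and Mme, the membrane peptidase neprilysin, was at −1.40 (SE 0.16, adjusted p = 0.000226). All 4 kept their calls with each array left out. Nrep fell by 2.05 (adjusted p = 0.0163, lost in 4 of 6 fits, up to 0.0772 without HAES replicate 2), and Akr7a3, an aldehyde reductase that detoxifies aflatoxin, by 1.52 (adjusted p = 0.00982, lost in 2 fits at 0.0528 each, without HAES replicate 3 or naive replicate 2). Among the largest rises outside the groups above were Sntb1, a syntrophin of the membrane skeleton, at 7.57, 7.21 and 6.69 in HAES livers and 4.89, 5.11 and 5.43 in naive livers (2.01, SE 0.30, adjusted p = 0.00146), and Pla1a, a phospholipase, at 7.28, 6.99 and 6.37 in HAES livers and 4.92, 5.14 and 4.78 in naive livers (1.94, SE 0.28, adjusted p = 0.00132), both kept in all 6 fits.

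Of 38 genes of endoplasmic reticulum translocation and N-glycosylation, a list also added after the calls were seen, 5 were past the threshold, all higher in HAES livers, and 32 were positive, with a median of 0.35. Ost4 (1.15) and Dad1 (1.01), subunits of the oligosaccharyltransferase, Tram1 (0.82) of the translocon, Jagn1 (0.80) and Sec11a (0.62) of the signal peptidase had adjusted p-values of 0.0101 to 0.0441. Naive replicate 1 was the lowest of the naive arrays in each, as in Ost4 at 8.24 against 9.73 and 9.55 in the other naive livers, and without it Ost4, Jagn1 and Sec11a were lost (adjusted p = 0.137 to 0.183), while Dad1 and Tram1 were lost without HAES replicate 3 (adjusted p = 0.066 and 0.0529). Over the 6 fits Sec11a was lost in 5, Ost4 and Jagn1 in 4 and Dad1 and Tram1 in 1. Of 27 chaperones and Xbp1 targets, Sdf2l1, a cochaperone, rose by 1.32 (adjusted p = 0.0164) and Edem1, which sends misfolded glycoproteins to degradation, fell by 1.05 (SE 0.22, adjusted p = 0.0151), with a median of 0.25. Sdf2l1 was lost in 3 of 6 fits (up to 0.0899, without naive replicate 1) and Edem1 in 2 (up to 0.0649, without HAES replicate 2).

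Of 30 NRF2 genes, Nfe2l2, which encodes NRF2, rose by 0.95 (adjusted p = 0.0459, lost with any 1 of the 6 arrays left out, up to 0.217 without naive replicate 1), while Akr7a3 and Tkt fell, with a list median of −0.05. Hypoxia genes (27 measured), heat shock proteins (14), ATF4 targets (25) and hepatocyte identity factors (15) had no member past the threshold by limma, and their medians were 0.01, 0.06, 0.01 and 0.26. In the same order 1, 3, 1 and 2 genes had an unadjusted p under 0.05, against 14.9% of all probe sets.

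Cell cycle genes did not pass the threshold in HAES livers as compared to naive livers. Of 46 mitosis genes 39 were positive, with a median of 0.19, and of 41 genes of DNA replication and nucleotide supply 30 were positive, with a median of 0.13, and 0 of each were past the threshold by limma. Over all genes with a single symbol 58.7% were positive, and median centring of the arrays lowered the list medians to 0.10 and 0.05. At an unadjusted p under 0.05 limma gave 5 mitosis genes and 8 replication genes, and the groups did not overlap in 3 and 9, where the shares over all probe sets were 14.9% and 18.2%. Top2a, which untangles DNA, was at 6.11, 7.00 and 6.07 in HAES livers and at 5.46, 5.68 and 5.65 in naive livers (0.80, SE 0.32, adjusted p = 0.226). Rrm2, a subunit of ribonucleotide reductase, was at 6.0, 6.36 and 5.78 in HAES livers and at 4.90, 5.46 and 5.27 in naive livers (0.84, SE 0.27, adjusted p = 0.132). HAES replicate 2 was the highest array in both genes. Mcm6, a helicase subunit, was at 0.65 (adjusted p = 0.188), Cdc45, its partner, at 0.50 (adjusted p = 0.0828), and the kinetochore and checkpoint genes Ndc80 and Bub1 at 0.42 each (adjusted p = 0.258 and 0.27). Among 25 G1 cyclins, inhibitors and Myc 6 had an unadjusted p under 0.05 and the median was −0.04, with Ccne2, a cyclin of S phase entry, at 0.58 (adjusted p = 0.202) and the inhibitors Cdkn1a and Cdkn3 at −0.79 and −0.95 (adjusted p = 0.244 and 0.107). In 32 genes of ribosome biogenesis 27 were negative, with a median of −0.17, 0 past the threshold by limma and 6 at an unadjusted p under 0.05. Junb, an immediate early factor, fell by 1.29 (adjusted p = 0.0361, lost in 5 of 6 fits, up to 0.179 without naive replicate 1), and Inhba, a subunit of activin, which restrains hepatocyte growth, rose by 0.76 (adjusted p = 0.0479, lost in 5 fits, up to 0.207 without HAES replicate 3).

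Markers of cell types gave few differences between HAES and naive livers. In RNA of whole liver, fewer cells of a type and less RNA per cell cannot be told apart. None of the neutrophil (23 measured), recruited macrophage and monocyte (23), B and plasma cell (14), T and NK cell (24), endothelial (23), stellate cell and matrix (33), cholangiocyte (18) or erythroid and platelet (13) markers was past the threshold by limma, and 1, 1, 1, 3, 4, 7, 1 and 3 of them in the same order had an unadjusted p under 0.05, as had 14.9% of all probe sets. Of 24 Kupffer cell markers the 1 past it was Nr1h3, which hepatocytes also express, and of 13 hepatocyte markers Cyp2e1 was higher and Ass1 lower. Summed marker intensity, on the log2 scale, was 9.34 to 9.61 in HAES livers and 9.31 to 9.49 in naive livers for neutrophils, and 12.13 to 12.18 in HAES livers and 11.62 to 12.14 in naive livers for Kupffer cells. It was 15.02 to 15.27 in HAES livers and 15.01 to 15.31 in naive livers for hepatocytes. The endothelial sum was 10.47 to 10.65 in HAES livers and 10.66 to 10.92 in naive livers, without overlap, and the median of the 23 markers was −0.15. For erythroid cells and platelets it was 8.73 to 9.27 in HAES livers and 8.24 to 8.71 in naive livers, also without overlap. The defining neutrophil marker S100a8 was at 4.56 in HAES livers and 4.51 in naive livers, near the level of an intensity of 0, and the 23 neutrophil markers had a median log2 fold change of 0.08. Neutrophils are also known to express Lcn2. The part of the endothelial and erythroid sums in the other differences was not tested.

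**Figure D3:**
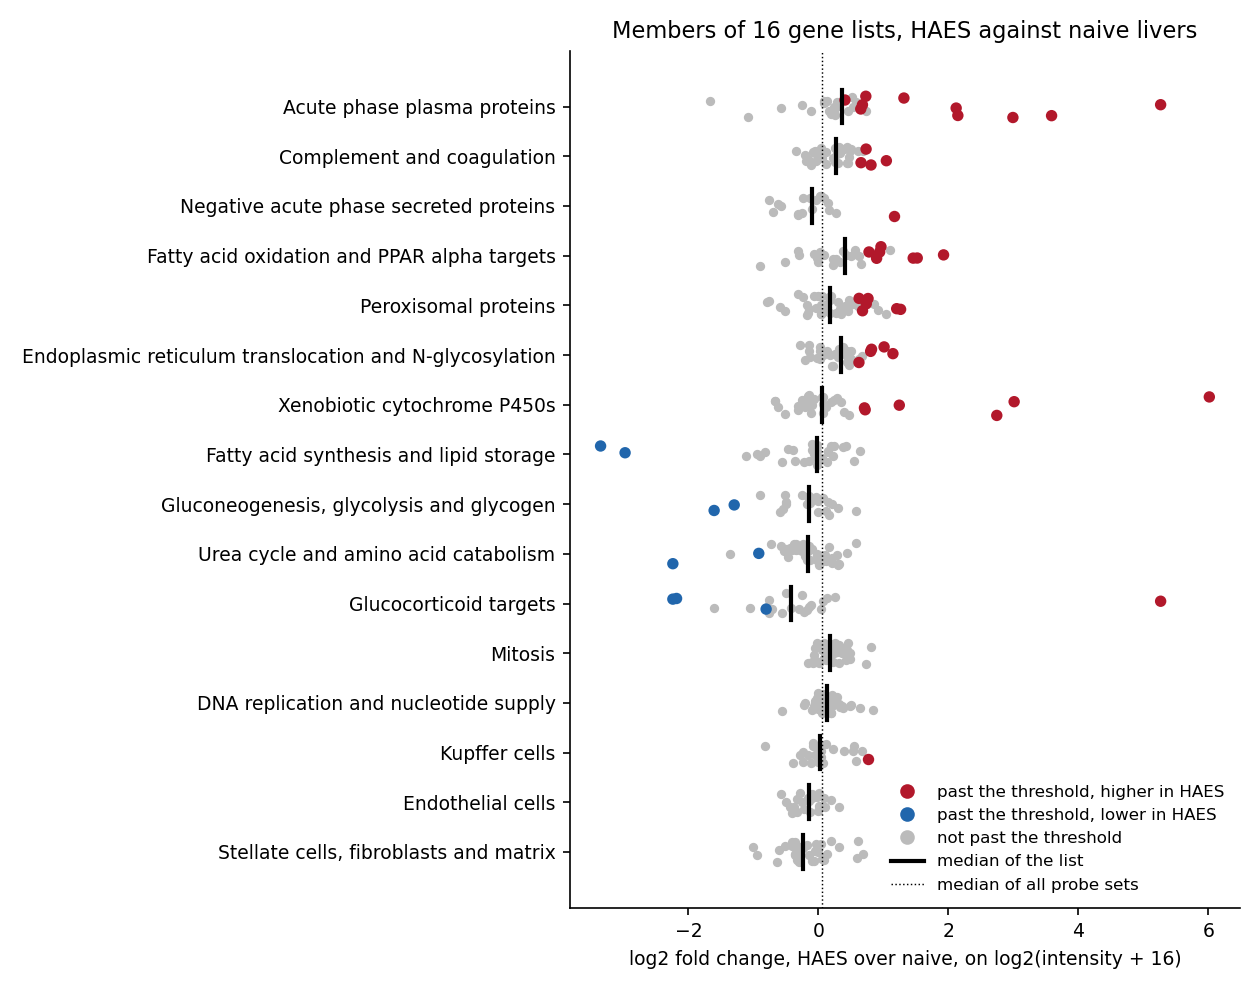
Log2 fold changes of HAES over naive livers for the measured members of 16 gene lists, 1 point per gene, red or blue where past the threshold and grey otherwise, with the median of each list as a bar and the median of all probe sets (0.05) as a dotted line. The acute phase, fatty acid oxidation and P450 lists hold only higher genes past the threshold, the lipid synthesis, glycolysis and urea cycle lists only lower ones, and mitosis and DNA replication none.

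To set these differences beside the steps of the operation, HAES livers were also compared with PHx and bleeding livers. The comparisons share the HAES arrays, and those with naive livers share the naive arrays, so their values are given side by side. Against PHx livers 836 probe sets (2.28%) were past the threshold, 443 higher and 393 lower in HAES livers, and against bleeding livers 663 (1.81%), 421 higher and 242 lower. Without PHx replicate 3 the first count was 298, and without bleeding replicate 3 the second was 119. None of the 30 acute phase genes was past the threshold in either by limma, and 6 against PHx and 2 against bleeding livers had an unadjusted p under 0.05, as had 15.5% and 14.5% of all probe sets. Lcn2 averaged 10.34 in HAES livers, 10.85 in bleeding livers, 10.96 in PHx livers and 5.07 in naive livers, and the HAES level differed from the others after PHx by −0.51 and −0.62 (adjusted p = 0.57 against bleeding and 0.45 against PHx). A2m was at 11.91 in HAES livers, 11.80 in bleeding livers, 11.80 in PHx livers and 8.32 in naive livers. Stac3 (5.13, 4.91, 4.85 and 8.02 in the same order) and Mme (4.71, 4.77, 4.81 and 6.11) were low in every group with PHx. Of 46 mitosis genes 2, Top2a and Bub1, were higher in HAES than in bleeding livers past the threshold, and 0 differed from PHx livers. The 2 calls were lost in 4 and 5 of 6 fits with 1 array left out. At an unadjusted p under 0.05 limma gave 19 and 0 of the 46. The median difference was 0.35 from bleeding and −0.03 from PHx livers, and PHx livers differed from naive livers by a median of 0.17. Of 41 replication genes 1 was past the threshold, lower than in PHx livers. At an unadjusted p under 0.05 limma gave 14 against PHx and 7 against bleeding livers, with median differences of −0.26 and 0.10. Of 32 ribosome biogenesis genes 4 were past the threshold against PHx livers, all lower in HAES livers, and 0 against bleeding livers. Here 22 and 5 had an unadjusted p under 0.05, and the median differences were −0.49 and −0.14. A p above the threshold does not show that the groups were alike.

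Cyp2b1 was at 10.63 ± 1.03 in HAES livers, 10.59 ± 0.25 in bleeding livers and 8.17 ± 1.48 in PHx livers (SD, n = 3 each), 2.46 higher in HAES than in PHx livers (SE 0.62, adjusted p = 0.0474, lost in 4 of 6 fits with 1 array left out, up to 0.169 without PHx replicate 1). Cyp3a9 was at 8.77 in HAES livers, 8.75 in bleeding livers and 6.56 in PHx livers, 2.21 above PHx livers (adjusted p = 0.0376, lost in 5 fits, up to 0.147 without PHx replicate 1). From bleeding livers they differed by 0.04 and 0.03 (SE 0.62 and 0.53). Cyp4a1 behaved otherwise, at 10.73 ± 0.34 in HAES livers, 8.85 ± 0.06 in bleeding livers and 9.74 ± 0.30 in PHx livers (SD, n = 3 each), 1.87 above bleeding livers (SE 0.28, adjusted p = 0.00408). Of the 28 fatty acid oxidation genes, 6 were higher in HAES than in bleeding livers past the threshold, with a list median of 0.52, and 1 was higher than in PHx livers, with a list median of 0.48. Over all probe sets 1.81% and 2.28% were past the threshold. At an unadjusted p under 0.05 limma gave 17 and 12 of the 28, against 14.5% and 15.5% of all probe sets. The difference between the counts of the 2 comparisons was not tested. Nat8f2, an acetyltransferase relative, was at 8.26 in HAES livers, above bleeding (6.48), PHx (5.79) and naive livers (6.82), by 1.78, 2.48 and 1.44 (adjusted p = 0.00759, 0.00163 and 0.0157), the last of these being lost in 4 of 6 fits (up to 0.0796, without naive replicate 1) and the first without bleeding replicate 3 (0.0552).

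Zbtb16, low in HAES livers at 4.61 ± 0.09, was at 5.67 ± 0.71 in bleeding livers and 6.74 ± 0.33 in PHx livers (SD, n = 3 each), with differences of −2.13 from PHx livers (adjusted p = 0.00385) and −1.06 from bleeding livers (adjusted p = 0.128). Edem1 was at 9.12 in HAES livers, 10.01 in bleeding livers, 10.38 in PHx livers and 10.17 in naive livers, lower in HAES livers than in each of these 3 groups (adjusted p = 0.049, 0.00714 and 0.0151), but against bleeding livers it was lost with any 1 array left out (up to 0.216, without bleeding replicate 3) and against naive livers in 2 of 6 fits (up to 0.0649, without HAES replicate 2). Of the 27 chaperones and Xbp1 targets, 6 were lower in HAES than in bleeding livers past the threshold and 2 lower than in PHx livers. None were higher, and the list medians were −0.36 and −0.35. Over all probe sets 1.81% and 2.28% were past the threshold in these comparisons. Rplp0, a ribosomal stalk protein with many pseudogenes, was at 5.09, 6.51 and 4.99 in HAES livers and at 6.67, 6.88 and 7.01 in naive livers (−1.32, adjusted p = 0.033, lost in 5 of 6 fits, up to 0.183 without HAES replicate 3), and averaged 7.45 in bleeding livers and 7.46 in PHx livers. Markers of recruited macrophages and matrix were lower in HAES than in PHx livers in 5 of 23 and 5 of 33 genes past the threshold. Against bleeding livers 1 and 0 of them were lower. Other lists were also lower in part than in PHx livers, with 4 of 23 neutrophil markers, 2 of 23 endothelial markers and 3 of 25 cytokine signalling genes. Against bleeding livers 1, 0 and 1 of these were lower. Over all probe sets 2.28% differed from PHx and 1.81% from bleeding livers in either direction. The matrix median over naive livers was 0.36 in PHx, −0.25 in bleeding and −0.23 in HAES livers. Of the macrophage genes lower than in PHx livers, Vcan was lost in 5 of 6 fits with 1 array left out and Gpnmb in 2. Spp1 (osteopontin) was at 4.46 in HAES livers, 7.82 in PHx livers and 4.82 in naive livers, Mmp12 (macrophage elastase) at 4.98, 8.20 and 5.85, and Tagln (a smooth muscle protein) at 5.24, 7.89 and 6.19 in the same order. Against PHx livers limma gave adjusted p-values of 0.00834, 0.00311 and 0.00555 for these 3 genes, and each call was kept with any 1 array left out. Hmox1, the heme-degrading enzyme, was at 5.97 ± 0.27 in HAES livers, 7.75 ± 0.57 in bleeding livers, 8.17 ± 0.79 in PHx livers and 6.80 ± 0.67 in naive livers (SD, n = 3 each). Against PHx livers the difference was −2.20 and against bleeding livers −1.78 (adjusted p = 0.00834 and 0.0303, the second lost in 5 of 6 fits with 1 array left out, up to 0.117 without bleeding replicate 1), while the difference of −0.83 from naive livers was not past the threshold (adjusted p = 0.34).

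Some probe sets part the groups that were given a fluid from the others. In 269 probe sets all 9 arrays of HAES, F-RBC and S-RBC rats lay on 1 side of the 9 arrays of bleeding, PHx and naive rats, and these hold 204 of the 962 probe sets and 24 of the 237 genes past the threshold between HAES and naive livers. They were chosen on these values, so no test is given for that pattern. Fis1, which takes part in mitochondrial fission, was at 6.76, 6.30 and 6.22 in HAES livers and at 7.82, 8.25 and 8.01 in naive livers, and averaged 6.48 and 6.69 in S-RBC and F-RBC livers, against 8.13 and 8.35 in bleeding and PHx livers. Entpd7, a nucleotidase, was at 4.83 in HAES livers, 5.51 in S-RBC, 5.40 in F-RBC, 6.35 in bleeding, 6.48 in PHx and 6.31 in naive livers. Ppif, the mitochondrial cyclophilin, named after its values were seen, was high where a fluid was given, at 7.46 in HAES, 7.42 in S-RBC and 7.75 in F-RBC livers and at 6.38 in bleeding, 6.46 in PHx and 6.21 in naive livers. Hadhb, Ugt2b10, Ces2e, Tram1, Abcd2 and Slc25a17 of the paragraphs above are also among the 269. What else the arrays of these 3 groups share, such as a day of processing, is not given in the sources used here, and its part in the results was not tested.

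**Figure D4:**
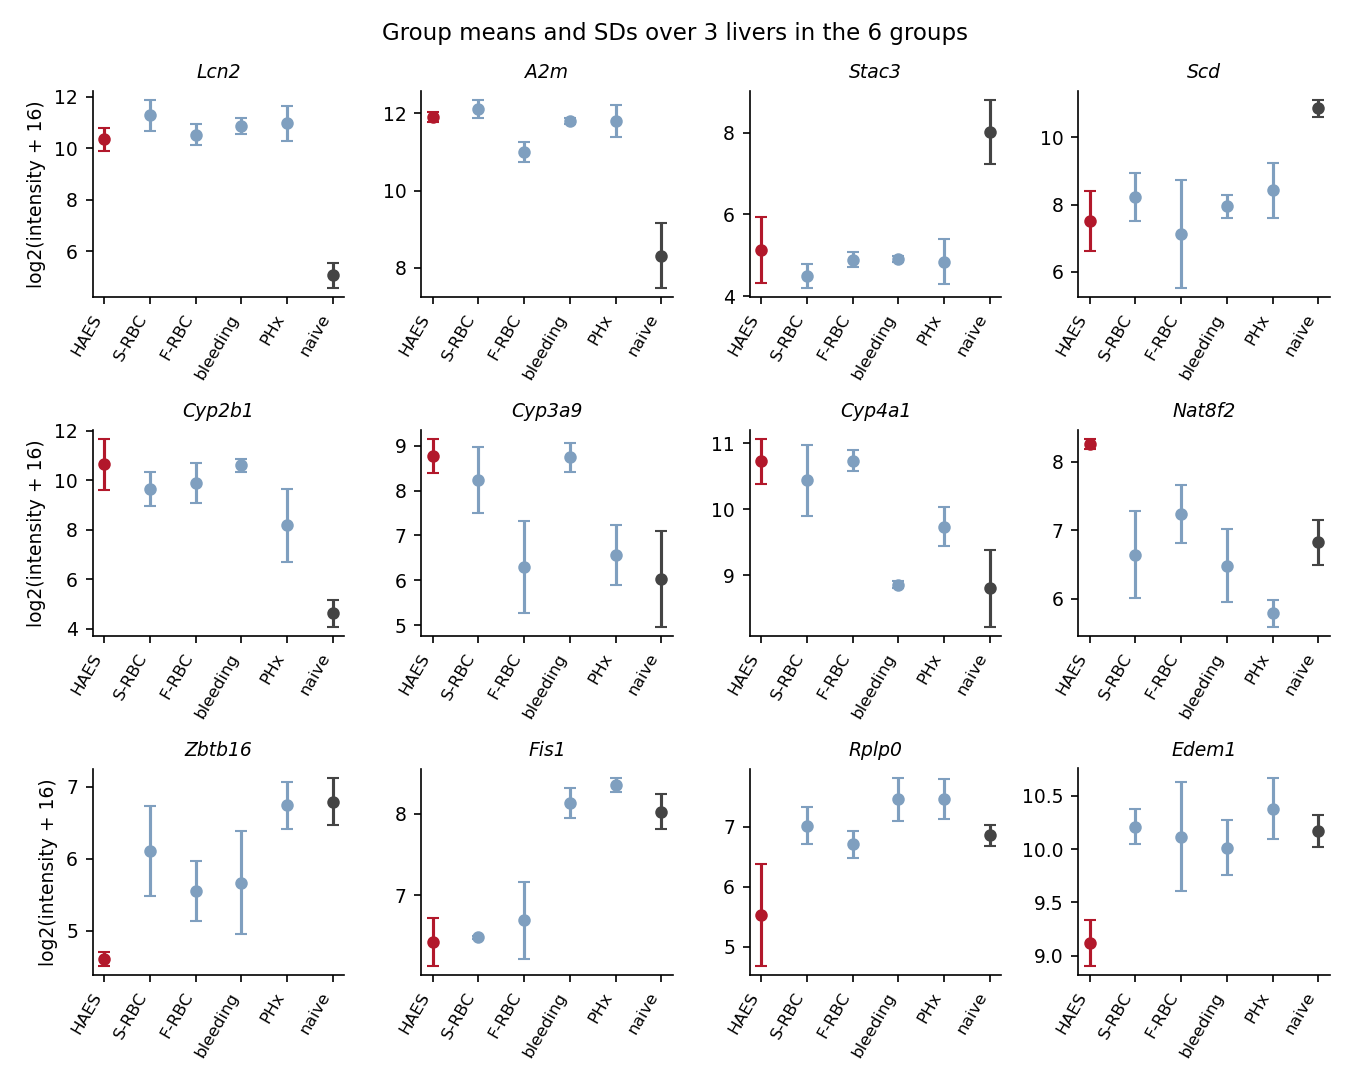
Mean levels with SDs over 3 livers of 12 genes, as log2(intensity + 16), in HAES (red), S-RBC, F-RBC, bleeding and PHx (blue) and naive livers (grey), each panel on its own axis. Lcn2 and A2m are high and Stac3 and Scd low in all 5 groups with PHx, Cyp4a1 is near the naive level of 8.80 in bleeding livers and at 10.73 in HAES livers, and Fis1 is low in the 3 groups given a fluid.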

How the data were processed

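Total RNA of frozen liver from 18 rats, 1 array each, was hybridised to Rat Gene 2.0 ST arrays. The authors deposited 1 table of linear intensity values for 36685 probe sets. Affymetrix Power Tools and PLIER stand in the submitters' processing notes, and RMA beside PLIER in the methods. Which of these made the values, with versions and build, is not given in the sources used here. Intensities ran between 1e-05 and 8721, and no normalization was added. The number of arrays limits the precision.

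Levels were log2(intensity + 16). limma 3.58.1 in R 4.3.3 (lmFit with 1 mean per group over 18 arrays, eBayes with trend) gave differences, SEs and p-values, adjusted by Benjamini-Hochberg over all probe sets, with a threshold of 0.05 (12 residual degrees of freedom). Other steps used Python 3.11.15 with pandas 2.3.3 and matplotlib 3.10.9. A gene was represented by its brightest probe set (18166 genes); 18511 probe sets carried 1 symbol, 575 several and 17599 none. Symbols were those of the table, and the RefSeq table changed 0 of them. Replicates are separate rats.

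Named genes were the 15 with the largest rise and the 15 with the largest fall past the threshold whose HAES and naive arrays did not overlap, leaving out predicted genes and receptor, immunoglobulin and histocompatibility families, members of 41 gene lists past the threshold or with the smallest p (up to 5), and the 5 largest each way against PHx and bleeding livers. The members, lists and tests were chosen with earlier results of these data known, and 3 lists were added after the calls were seen. No set test was made. On simulated data for HAES against naive livers, changes were planted in 200 of 36685 probe sets, all of them brighter than the median level. There 71 of 100 changes of log2 size 1 and 97 of 100 of size 2 were recovered. Recovery in dimmer probe sets was not tested. Alternatives were median centring, quantile normalization, offsets of 1 and 64, removal of dimmer probe sets, array weights, only the groups compared, a replicate block, the methods' t-test, removal of the 269 probe sets that part the arrays by fluid, and leaving out each array.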

Additional observations from a re-analysis of the deposited data

How the results depend on the processing

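HAES against naive livers gave 962 probe sets past the threshold. The count was 312 with only the groups compared, 0 with the methods' t-test after adjustment (3878 at an unadjusted p under 0.05) and 631 without the 269 probe sets that part the arrays by fluid. Leaving out 1 array of the compared groups gave 354 (without HAES replicate 3) to 1174, and leaving out S-RBC replicate 1 gave 1315. Against PHx livers the count of 836 was 216, 0 and 529 under the same 3 alternatives and 298 (without PHx replicate 3) to 920 with 1 array left out (1180 without S-RBC replicate 1). Against bleeding livers the count of 663 was 338, 1 and 282, 119 (without bleeding replicate 3) to 640 with 1 array left out (976 without S-RBC replicate 1), 1225 with array weights and 1226 with quantile normalization. To look for pairing by replicate number, the deviations of each array from its group mean were correlated over all probe sets. For same-numbered HAES and naive livers these correlations of deviations were −0.09, −0.12 and 0.07. The replicate block gave 813 probe sets for HAES against naive. Quantile normalization gave 744 higher and 472 lower, median centring 534 and 483, and removal of dimmer probe sets 372 and 323. Of 86 named genes past the threshold none reversed. The call was kept by 84 under quantile normalization, 73 under median centring, 48 without HAES replicate 3, 48 without naive replicate 1, 44 with only the groups compared and 0 with the methods' t-test. Quantile normalization lost Cxcl10 and Ces2h (adjusted p = 0.0704 and 0.052 from limma). Median centring lost 13, among them Hp, F5, Cyp2e1, Decr1, Hadha, Hsdl2, Nudt7, Slc27a2, Jagn1, Sec11a, Nfe2l2 and Inhba (adjusted p = 0.0501 to 0.0919 from limma). With 3 livers a group and intensities near 0 for many probe sets, fold changes of dim genes depend on the offset.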

Other observations

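Probe sets without a single symbol made up 18174 of those tested, and 711 of them (3.91%) were past the threshold between HAES and naive livers, against 251 of 18511 (1.36%) with 1 symbol. In the dimmer part of the array, split at the median level, 343 probe sets were higher and 41 lower in HAES livers, and in the brighter part 310 were higher and 268 lower. Exact repeats of all 18 values of another probe set were found in 1405 probe sets.

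Of 1344 chemosensory receptor genes, 20 (1.49%) were past the threshold, a share close to that of the other genes (217 of 16822, 1.29%). All 20 were higher in HAES livers. The receptor genes were dim, with a median level of 4.42, and calls in the dimmer part of the array were mostly higher as well. Or8h7b, an olfactory receptor gene chosen after its values were seen and left out by the naming rule, was at 7.14, 9.27 and 11.04 in HAES livers and at 4.26, 4.40 and 4.23 in naive livers. The groups were 4.85 apart (SE 0.62, adjusted p = 0.000525, limma), a call kept with each of the 6 arrays left out, and 6.89 apart with an offset of 1 and 3.26 with an offset of 64, since the naive levels lie near that of an intensity of 0. It averaged 8.35 in S-RBC, 6.98 in F-RBC, 5.06 in bleeding and 5.13 in PHx livers, and it is among the 269 probe sets that part the arrays by fluid.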
